A study of Mus musculus with 8 samples.

Results

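The glutathione and antioxidant defence genes were the 53 mouse genes, of 36432 with a value, whose symbols name soluble and microsomal glutathione S-transferases, glutathione peroxidases, peroxiredoxins, superoxide dismutases, the enzymes that make and recycle glutathione, thioredoxin and its reductase, sulfiredoxin, and the NRF2 regulators Nfe2l2 and Keap1 with the stress enzymes Nqo1 and Hmox1. They were picked by a rule on gene symbols that uses no measured value. Poly(A) RNA was sequenced from 8 whole pancreases of mice aged 6 to 8 weeks and of mixed strain. In 4 of them, labelled Ptf1a-Cre +/KI; Gata6 lox/lox, Cre recombinase from the Ptf1a locus was directed at floxed alleles of Gata6, which encodes a pancreatic transcription factor with zinc fingers. The 4 controls, labelled Ptf1a-Cre +/KI, carried the same Cre allele and no floxed Gata6. Ptf1a is active in pancreatic progenitors and in acinar cells, so duct, islet and acinar cells can all descend from cells in which the Cre was active, while stroma, vessels, fat and blood cells do not. Values are rescaled FPKM, the deposited FPKM (a fragment number per kilobase of transcript, here not scaled to a fixed library total) divided by 1 constant, and can be compared between genes because they are per length. Log2 fold changes were fitted with limma on log2(rescaled FPKM + 1), positive where the Gata6-deleted side was higher, and a gene was called at a Benjamini-Hochberg adjusted p under 0.05 over all 11860 genes with a mean of at least 1.

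Glutathione is a small thiol made from glutamate, cysteine and glycine. Glutathione peroxidases use it to reduce peroxides, glutathione S-transferases couple it to electrophiles, and glutathione reductase returns the oxidised form with NADPH. Peroxiredoxins reduce peroxides with electrons from thioredoxin, and superoxide dismutases turn superoxide into hydrogen peroxide. NRF2, the product of Nfe2l2, is held and degraded through KEAP1 and, when released by oxidants or electrophiles, drives many of these genes through antioxidant response elements. The exocrine pancreas uses peroxide chemistry in its endoplasmic reticulum as well, since disulfide formation in secreted enzymes yields hydrogen peroxide, which Prdx4 consumes there.

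The targeted gene was read first, and it was higher in the libraries labelled as deleted. Gata6 was at 4.81, 5.12, 4.90 and 4.12 rescaled FPKM in labelled libraries 1 to 4, against 2.76, 2.12, 2.62 and 2.45 in controls 1 to 4 (log2 fold change 0.72, SE 0.11, adjusted p = 0.0443 by limma; exact two-sided permutation p = 0.0286, the smallest that 4 against 4 allow). A gene-level value does not resolve the floxed exons, so the deletion was not checked, and the libraries are called labelled libraries here. Fragments implied by the deposited intervals numbered 5357599 to 9242248 per labelled library and 7124469 to 8248152 per control. Abundant genes listed without an estimate add nothing to these totals. They numbered 6 to 8 in each control and 0, 6, 5 and 6 in labelled libraries 1 to 4, so the totals are not full library depths. Labelled libraries 1 and 3 stood apart from the rest in acinar RNA: the summed level of 13 acinar markers was 2464, 203778, 34666 and 255919 rescaled FPKM in labelled libraries 1 to 4, and each of the 4 controls had between 377586 and 532915. None of the 13 was called, against 0.219% of all genes tested called higher and 0.194% lower. The log2 fold change was negative in 12 of them, and positive in Ctrc, 1.18, whose groups overlapped. In whole tissue, fewer cells of a type and less of an RNA per cell cannot be told apart. The sample titles of labelled libraries 1, 3 and 4 and of control 1 begin with BKD, that of labelled library 2 with BSH and those of controls 2 to 4 with ASK. The labels do not say what these letters mean or whether the samples were separate litters or days, so p-values measure the spread between these samples only.

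Extracellular superoxide dismutase, Sod3, was the 1 member of the 44 tested that was called, and it rose. No member was called lower. Of all genes tested, 0.219% were called higher and 0.194% lower. Below that threshold members lay on both sides: Nfe2l2, haem oxygenase, peroxiredoxin 1, the plasma glutathione peroxidase Gpx3 and microsomal transferase Mgst1 had higher means in the labelled libraries, while the mu and pi class glutathione S-transferases, the ectoenzyme Ggt1 and Prdx4 had lower means. At an unadjusted p under 0.05 in limma, 8 members were higher and 12 lower, against 17.9% and 12.2% of all genes. The groups did not overlap in 5 tested members on the higher side and 9 on the lower side, against 10.9% and 7.62% of all genes. The median log2 fold change was -0.16 over the 44 members, with 20 positive and 24 negative, beside 0.10 over all genes tested. The other 9 members had means below 1 rescaled FPKM and were not tested: Nqo1, Mgst2, Gstm3, Gsto2, Gstt4, Gsta1, Gsta2, Gpx5 and Gpx6, the last listed at 0 in all 8 libraries.

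The counts of calls rested on single libraries. Without labelled library 4 the fit called 8 members higher and 7 lower, when 11.6% and 10.2% of all genes were called. Without labelled library 1, labelled library 3 or any 1 of the controls it called none in either direction. Those fits called 0.0586% to 0.177% of all genes higher and 0.0168% to 0.0921% lower. Without labelled library 2 it called Sod3 alone, when 0.548% of all genes were called higher and 0.362% lower. Each tested member is placed by its role in the plot of fitted differences.

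**Figure D1:**
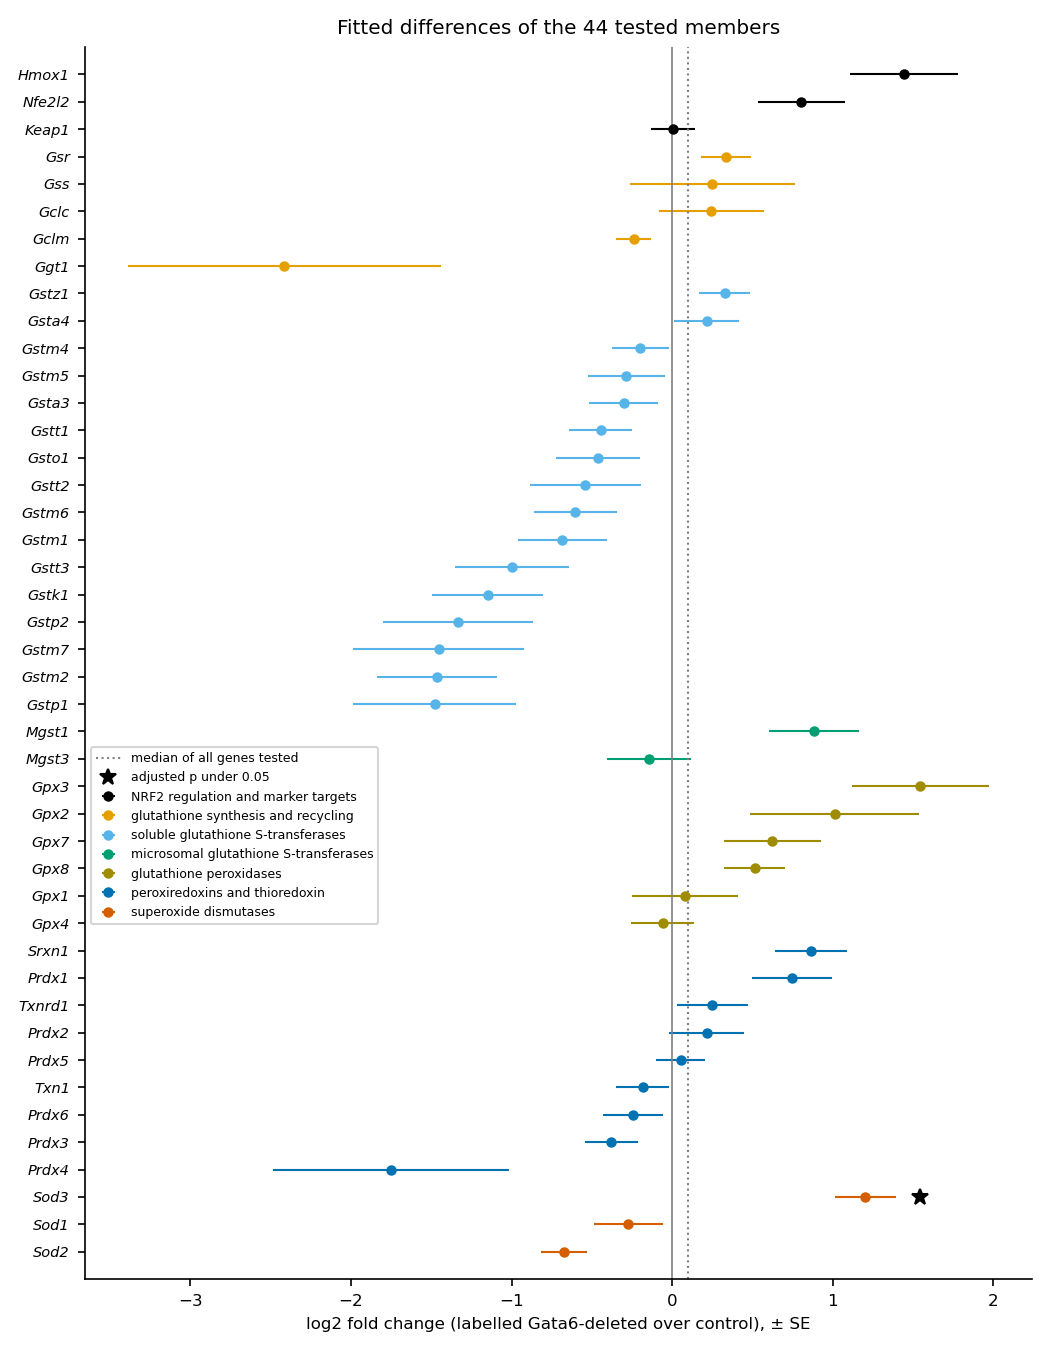
Fitted log2 fold change with its standard error (limma, 4 labelled Gata6-deleted libraries over 4 controls) for the 44 tested members, grouped by role and coloured by it; the dotted line is the median of all genes, 0.10. Sod3 at 1.20 carries the star of an adjusted p under 0.05, 14 of the 16 soluble glutathione S-transferases lie below 0, and Ggt1 at -2.41 has the widest standard error.

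The NRF2 group held the regulator, its repressor and a pair of enzymes whose genes are standard readouts of NRF2. Nfe2l2 was at 14.7, 6.97, 12.4 and 5.65 rescaled FPKM in labelled libraries 1 to 4, against 4.59, 4.55, 5.08 and 5.32 in controls 1 to 4. All 4 labelled values lay above all control values, with labelled libraries 1 and 3 the highest, and the means were 9.92 ± 4.30 in labelled libraries and 4.88 ± 0.377 in controls (SD, n = 4 each). The log2 fold change of Nfe2l2 was 0.81 (SE 0.27, limma adjusted p = 0.120), so it was not called. Keap1, the adaptor that delivers NRF2 to a ubiquitin ligase, was at 2.95, 2.87, 3.96 and 3.97 in the labelled libraries, against 3.88, 2.95, 3.12 and 3.67 in the controls. Its groups overlapped throughout, with a log2 fold change of 0.01 (SE 0.14, limma adjusted p = 0.978), slightly negative under median-ratio and quantile scaling.

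Hmox1, which breaks down haem, was at 11.9, 4.03, 12.8 and 4.88 rescaled FPKM in labelled libraries 1 to 4, against 1.89, 2.21, 2.25 and 2.19 in controls 1 to 4. The groups did not overlap, and the means were 8.41 ± 4.60 in labelled libraries and 2.13 ± 0.168 in controls (SD, n = 4 each). The log2 fold change was 1.44 (SE 0.33, limma adjusted p = 0.0896); it was 1.62 without labelled library 4, where the adjusted p was 0.0338. The deposited intervals implied 4.30 to 167 fragments of Hmox1 per library. These numbers come from interval widths and are not read counts, so how many fragments its lowest values rest on is not known. Nqo1, a quinone reductase, was far lower than Hmox1 throughout, at 0.561, 0.314, 0.464 and 0.239 in the labelled libraries, against 0.164, 0.215, 0.230 and 0.213 in the controls. Its groups did not overlap either, but its mean was below 1 and it was not tested. Its implied fragments were 2.00 to 32.0.

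Labelled libraries 1 and 3, the most depleted of acinar markers, also had the highest Nfe2l2 and Hmox1 values. Without both, the log2 fold change was 0.31 for Nfe2l2 and 0.80 for Hmox1. Macrophages are a known site of Hmox1 expression. The summed level of the 9 myeloid markers was 220 to 841 rescaled FPKM in the labelled libraries and 107 to 165 in the controls. None was at 0, and 8 of the 9 were higher without overlap, against 10.9% of all genes. The part of these cells in the Hmox1 and Nfe2l2 values was not tested.

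Promoters were read from RefSeq on GRCm38.p6, 250 bases before to 50 bases after each start of a gene, for 46 of the 53 members. The letters TGACNNNGC, the core of the antioxidant response element, were sought on both strands. They were found for 11 of the 46 members with a window, 23.9%, and for 14.0% of 27025 genes with windows of the same length. Some genes have several starts, 32851 windows in all, and a gene counted if any of its windows matched. The shares therefore depend on the number of windows per gene as well. Of the 11, Gclm, Ggt1, Gsta3, Gstm5, Gstm7 and Sod1 had lower means in the labelled libraries than in the controls. Mgst1, Nfe2l2, Prdx1, Srxn1 and Txnrd1 had higher means there. GATA letters, AGATAA on either strand, were found for Ggt1, Gsta3, Gstk1, Gstm7 and Keap1, 10.9% of members, beside 12.7% of all genes. A match is a description of the letters only. The windows printed here belong to 4 members with higher means in the labelled libraries and to Gstm7, which had a lower mean and holds the same letters. Capitals mark the match, in the sense of the gene, so a match on the other strand reads as its reverse complement.
Nfe2l2 (chr2:75704614-75704913, minus strand): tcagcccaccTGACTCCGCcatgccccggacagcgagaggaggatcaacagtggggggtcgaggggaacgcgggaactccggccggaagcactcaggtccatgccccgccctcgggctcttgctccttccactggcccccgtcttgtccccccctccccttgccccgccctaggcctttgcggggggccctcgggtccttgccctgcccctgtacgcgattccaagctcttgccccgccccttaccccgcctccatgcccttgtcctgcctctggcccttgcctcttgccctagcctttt
Srxn1 (chr2:152105274-152105573, plus strand): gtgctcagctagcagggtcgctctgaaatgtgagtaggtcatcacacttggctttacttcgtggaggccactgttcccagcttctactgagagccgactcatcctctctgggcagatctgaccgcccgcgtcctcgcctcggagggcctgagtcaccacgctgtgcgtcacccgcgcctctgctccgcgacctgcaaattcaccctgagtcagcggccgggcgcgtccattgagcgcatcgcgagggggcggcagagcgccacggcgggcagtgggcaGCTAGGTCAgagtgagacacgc
Prdx1 (chr4:116685349-116685648, plus strand): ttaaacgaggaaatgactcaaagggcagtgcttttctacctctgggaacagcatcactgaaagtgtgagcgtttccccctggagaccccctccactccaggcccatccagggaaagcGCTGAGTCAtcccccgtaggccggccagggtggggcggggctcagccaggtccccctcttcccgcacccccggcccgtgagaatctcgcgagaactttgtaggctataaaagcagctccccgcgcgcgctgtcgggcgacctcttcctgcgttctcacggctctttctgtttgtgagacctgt
Mgst1 (chr6:138140277-138140576, plus strand): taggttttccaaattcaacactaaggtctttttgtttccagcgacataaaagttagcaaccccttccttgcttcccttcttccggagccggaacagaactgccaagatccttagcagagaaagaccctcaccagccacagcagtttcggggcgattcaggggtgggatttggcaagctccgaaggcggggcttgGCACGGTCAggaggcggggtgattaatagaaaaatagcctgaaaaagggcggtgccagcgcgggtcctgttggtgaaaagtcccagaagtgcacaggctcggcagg
Gstm7 (chr3:107931565-107931864, minus strand): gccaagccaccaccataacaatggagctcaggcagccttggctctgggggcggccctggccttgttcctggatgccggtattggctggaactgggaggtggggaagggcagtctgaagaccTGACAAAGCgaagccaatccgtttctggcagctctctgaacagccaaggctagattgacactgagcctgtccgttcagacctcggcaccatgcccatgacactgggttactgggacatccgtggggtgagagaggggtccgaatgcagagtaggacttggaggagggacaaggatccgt
The match began 240 bases before the start in Nfe2l2, 133 before it in Prdx1, 129 before it in Gstm7 and 56 before it in Mgst1, and at base 29 after the start in Srxn1. In Prdx1 it also spelled the AP-1 motif TGANTCA, which none of the other 10 matching members' matches did.

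**Figure D2:**
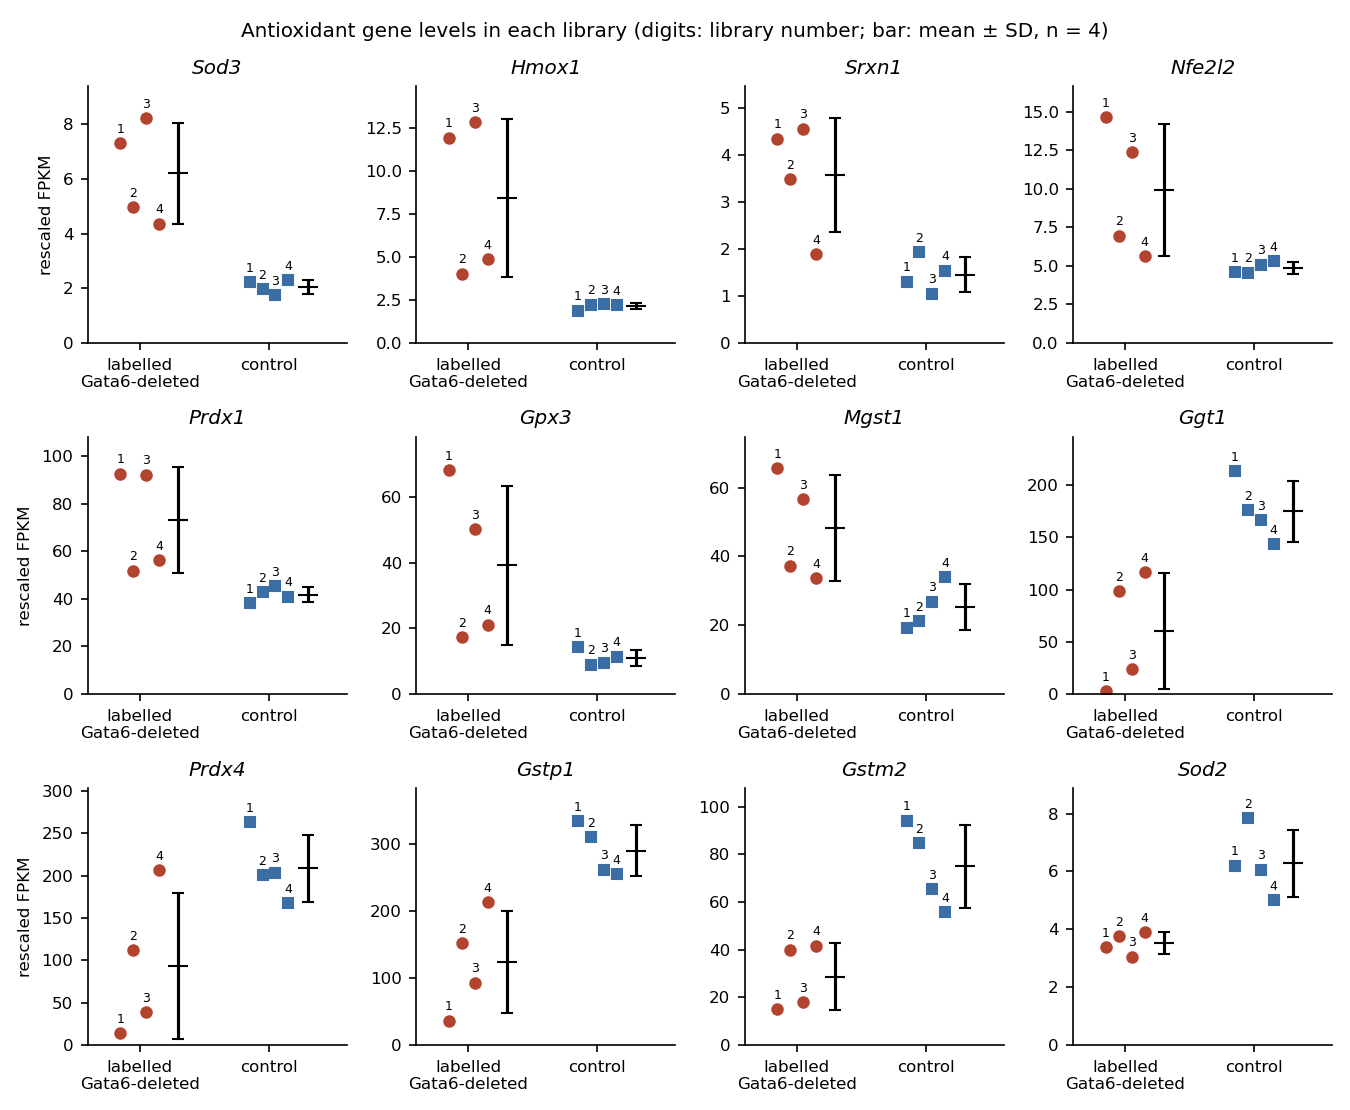
Rescaled FPKM (linear axes from 0) of 12 members in each library, labelled Gata6-deleted libraries to the left as circles and controls to the right as squares, with library numbers and mean ± SD (n = 4). Sod3, Hmox1, Nfe2l2, Prdx1 and Gpx3 had no control value as high as the lowest labelled value, and Ggt1, Gstp1, Gstm2 and Sod2 had no labelled value as high as the lowest control value.

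Of the 5 genes that make, recycle and break down glutathione, none was called. Gclc encodes the catalytic subunit of glutamate-cysteine ligase, the rate-limiting step. It was at 2.68, 2.15, 2.08 and 7.87 rescaled FPKM in labelled libraries 1 to 4, against 2.08, 2.37, 3.19 and 2.73 in controls 1 to 4 (log2 fold change 0.24, SE 0.33, limma adjusted p = 0.614). Labelled library 4 was the high one; without it the log2 fold change was -0.11. Gclm, the modifier subunit, was at 2.80, 2.92, 2.58 and 2.99 in the labelled libraries, against 3.15, 4.11, 3.47 and 3.36 in the controls. These Gclm groups did not overlap, with all labelled values the lower, but the difference was small. The Gclm log2 fold change was -0.24 (SE 0.11, limma adjusted p = 0.175). It turned positive under the scalings to an equal sum outside acinar enzymes and to implied fragment totals.

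Gsr, glutathione reductase, was at 5.79, 4.47, 6.01 and 5.08 rescaled FPKM in labelled libraries 1 to 4, against 3.30, 5.35, 3.43 and 4.15 in controls 1 to 4 (log2 fold change 0.34, SE 0.16, limma adjusted p = 0.187). Gss, glutathione synthetase, ranged from 1.55 to 6.10 in the labelled libraries and from 1.14 to 8.30 in the controls, and 3 other genes overlap its span. Ggt1, which splits extracellular glutathione at the cell surface, was the most abundant of the group. It was at 2.97, 98.3, 23.6 and 117 in labelled libraries 1 to 4, against 213, 176, 167 and 144 in controls 1 to 4. Every labelled value lay below every control value, and the means were 60.4 ± 55.6 in labelled libraries and 175 ± 29.0 in controls (SD, n = 4 each). Its log2 fold change was -2.41 (SE 0.98, limma adjusted p = 0.148) and -0.69 without labelled libraries 1 and 3, the 2 lowest in Ggt1 and in acinar markers alike; the part of acinar RNA in this was not tested.

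The soluble glutathione S-transferases made up the largest role, 21 members in 7 classes, of which 16 were tested and none was called. Their median log2 fold change was -0.57, with 14 negative and 2 positive (Gstz1 and Gsta4), and 6 had groups that did not overlap, all with the labelled side lower, against 7.62% of all genes lower and 10.9% higher without overlap. Under the scalings to an equal sum outside acinar enzymes and to implied fragment totals, which moved the median of all genes to 0.90 and 1.05, the median of the 16 was 0.34 and 0.53 and 15 of 16 lay below the median of all genes. The 6 tested mu class genes, which lie together on mm9 chromosome 3 from 107698739 to 107847812, were all negative, with a median of -0.64; relative to all genes they stayed lower under each of the 4 other scalings.

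Gstp1, the pi class enzyme, had the highest level of any soluble transferase. It was at 36.7, 153, 93.1 and 214 rescaled FPKM in labelled libraries 1 to 4, against 335, 311, 262 and 255 in controls 1 to 4. No labelled value reached the lowest control value, and labelled libraries 1 and 3 were again the lowest. The means were 124 ± 76.2 in labelled libraries and 291 ± 38.4 in controls (SD, n = 4 each), with a log2 fold change of -1.48 (SE 0.51, limma adjusted p = 0.122). Without labelled library 4 it was -1.83 (adjusted p = 0.0391), and without labelled libraries 1 and 3 it was -0.68.

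Gstp2, its neighbour on mm9 chromosome 19, followed the same order of libraries. It was at 14.9, 56.9, 34.8 and 76.5 rescaled FPKM in the labelled libraries, against 122, 111, 86.4 and 84.7 in the controls (log2 fold change -1.33, SE 0.47, limma adjusted p = 0.123). The coding sequences of the pair, the longest open reading frames of their GENCODE M21 transcripts, were identical at 98.1% of 633 aligned bases and differed at 12. Of these differences 6 fall in the first 90 coding bases, shown here with differing bases in capitals. Coding fragments without a differing base could be assigned to either gene, so the separate values are uncertain. The rest of the transcripts was not compared.
Gstp1: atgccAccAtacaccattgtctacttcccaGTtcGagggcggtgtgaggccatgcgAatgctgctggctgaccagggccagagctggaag
Gstp2: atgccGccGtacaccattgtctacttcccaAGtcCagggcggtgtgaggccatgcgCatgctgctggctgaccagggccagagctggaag

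Gstm2 had the highest mean level of the mu class. It was at 15.1, 40.0, 17.9 and 41.7 rescaled FPKM in labelled libraries 1 to 4, against 94.1, 84.6, 65.5 and 55.8 in controls 1 to 4. The groups did not overlap, the means were 28.7 ± 14.1 in labelled libraries and 75.0 ± 17.5 in controls (SD, n = 4 each), and the log2 fold change was -1.46 (SE 0.37, limma adjusted p = 0.101). It was -0.83 without labelled libraries 1 and 3 and -1.68 (adjusted p = 0.0340) without labelled library 4. Gstm1 overlapped between the groups, at 24.7 to 46.6 in the labelled libraries and 40.6 to 72.2 in the controls. Gstm7, lower and with 6.21 to 37.5 implied fragments, was at 0.721 to 5.71 in the labelled libraries and 5.80 to 16.1 in the controls; its coding sequence was 84.9% identical to that of Gstm2. Gstm6 overlaps Gstm3 in the annotation, and how fragments were divided between them is uncertain.

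Among the other classes, Gstk1, the mitochondrial kappa class enzyme, was at 2.52 to 7.43 rescaled FPKM in the labelled libraries and 8.48 to 17.6 in the controls (log2 fold change -1.15, limma adjusted p = 0.110). Gstt3, of the theta class, was at 2.46 to 9.73 in the labelled libraries and 9.98 to 13.4 in the controls (-0.996, limma adjusted p = 0.127). The theta genes Gstt1 and Gstt2 had smaller differences, -0.45 and -0.54, with overlapping groups. Gsta3 at -0.30, Gsto1 at -0.46 and Gstz1 at 0.33 overlapped too, and Gstz1, which also isomerises maleylacetoacetate, was among the 2 members of the role with a higher mean in the labelled libraries. Alpha class Gsta1 and Gsta2, whose coding sequences were 97.5% identical, had a value above 0 in control 1 only.

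Of the 3 microsomal glutathione S-transferases, Mgst1 was the abundant one. It was at 65.6, 37.3, 56.6 and 33.7 rescaled FPKM in labelled libraries 1 to 4, against 19.3, 21.2, 26.8 and 34.0 in controls 1 to 4. The groups overlapped by 1 library, labelled library 4 lying just under control 4. The means were 48.3 ± 15.3 in labelled libraries and 25.3 ± 6.61 in controls (SD, n = 4 each), with a log2 fold change of 0.88 (SE 0.28, limma adjusted p = 0.114), 0.50 without labelled libraries 1 and 3. Mgst3 was at 2.31, 2.61, 2.77 and 3.67 in the labelled libraries, against 4.39, 4.44, 1.46 and 3.37 in the controls (-0.15, limma adjusted p = 0.709). Mgst2 was listed at 0 in controls 2 and 3 and reached 3.42 in labelled library 2.

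None of the 6 tested glutathione peroxidases was called. Gpx4, which reduces lipid hydroperoxides in membranes, was the most abundant and the steadiest, at 102, 88.3, 113 and 113 rescaled FPKM in labelled libraries 1 to 4, against 116, 100.2, 103 and 113 in controls 1 to 4. Its log2 fold change was -0.06 (SE 0.20, limma adjusted p = 0.847), positive under quantile, equal-sum and implied-total scaling. Gpx1, the cytosolic form, was at 63.6, 26.9, 57.3 and 26.0 in the labelled libraries, against 43.8, 40.4, 35.5 and 32.7 in the controls. Labelled libraries 1 and 3 were above all controls and labelled libraries 2 and 4 below all of them, so its log2 fold change of 0.08 (SE 0.33, limma adjusted p = 0.878) averaged opposite values and was -0.50 without labelled libraries 1 and 3.

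Gpx3, the secreted plasma form, was at 68.3, 17.4, 50.2 and 21.2 rescaled FPKM in labelled libraries 1 to 4, against 14.3, 8.94, 9.56 and 11.4 in controls 1 to 4. The groups did not overlap, and the means were 39.3 ± 24.3 in labelled libraries and 11.1 ± 2.41 in controls (SD, n = 4 each). Gpx3 had the largest positive log2 fold change of the 44, 1.55 (SE 0.43, limma adjusted p = 0.104), which was 0.77 without labelled libraries 1 and 3 and 1.76 (adjusted p = 0.0387) without labelled library 4. Fat cells express Gpx3. The 8 adipocyte markers summed to 498, 437, 380 and 448 rescaled FPKM in labelled libraries 1 to 4, and 75.0 to 223 in the controls. None was at 0, all 8 were positive, and Plin4 and Cidec were called higher, against 0.219% of all genes. The myeloid sum was 841, 265, 741 and 220 in labelled libraries 1 to 4, and 107 to 165 in the controls. That of 8 fibroblast markers was 852, 333, 1253 and 393, and 206 to 284 in the controls. The part of these cells in the Gpx3 values was not tested. Gpx2, the gastrointestinal form, was at 5.52, 2.13, 2.83 and 0 in labelled libraries 1 to 4, against 0, 0.652, 0.730 and 0.655 in controls 1 to 4 (log2 fold change 1.01, limma adjusted p = 0.216; 1.54 without labelled library 4, adjusted p = 0.0336). It was listed at 0 in 1 library of each group, its span overlaps Fntb, and of the 3 gut epithelium markers Fabp2 and Cdx2 were at 0 in all 8 libraries. The third, Vil1, was at 0.403 to 1.24 rescaled FPKM in the labelled libraries and 0.102 to 0.443 in the controls, below the minimum for a test; its part in the Gpx2 values was not tested. Gpx7 and Gpx8, of the endoplasmic reticulum, had log2 fold changes of 0.62 and 0.51 with overlapping groups.

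**Figure D3:**
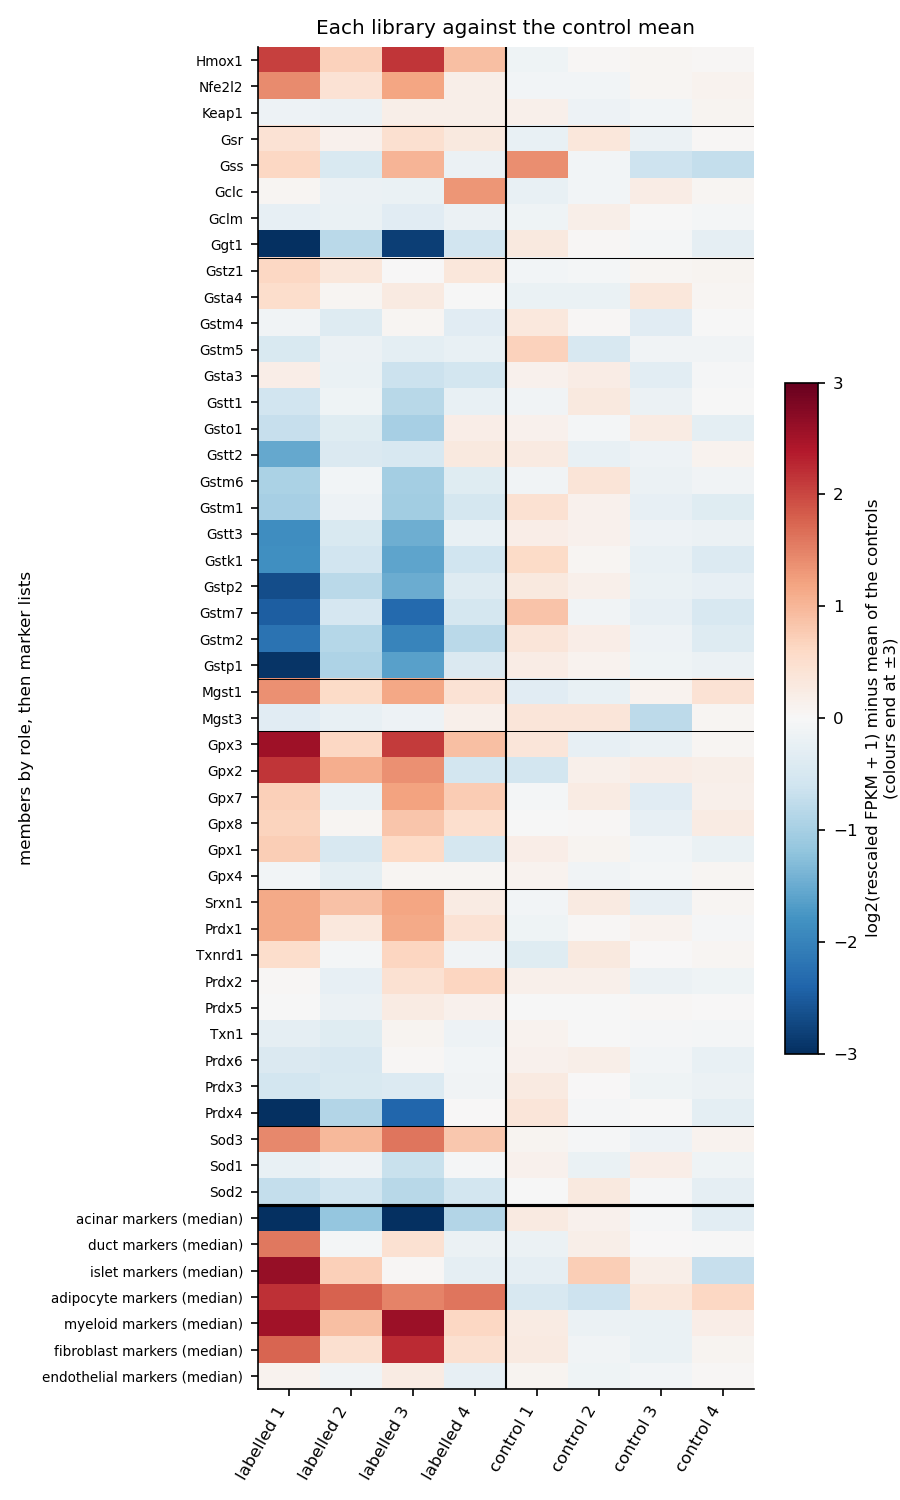
Log2(rescaled FPKM + 1) minus the control mean in each library (labelled Gata6-deleted to the left, controls to the right) for the 44 tested members by role, red above and blue below, with the median of 7 marker lists under the thick line. Labelled libraries 1 and 3 carry the strongest colours in both directions, as in the acinar, myeloid and fibroblast rows; the acinar list had a median log2 fold change of -3.14.

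The thioredoxin-linked genes held 9 members, all tested and none called. Prdx1, an abundant cytosolic peroxiredoxin, was at 92.5, 51.8, 92.1 and 56.3 rescaled FPKM in labelled libraries 1 to 4, against 38.2, 42.8, 45.3 and 40.9 in controls 1 to 4. Every labelled value lay above every control value, and the means were 73.2 ± 22.2 in labelled libraries and 41.8 ± 3.02 in controls (SD, n = 4 each; log2 fold change 0.75, SE 0.25, limma adjusted p = 0.117). It was 0.37 without labelled libraries 1 and 3, and 0.85 (adjusted p = 0.0472) without labelled library 4. Srxn1, sulfiredoxin, restores overoxidised peroxiredoxins. Its values were 4.34, 3.48, 4.55 and 1.89 in the labelled libraries, against 1.30, 1.93, 1.04 and 1.54 in the controls. Labelled library 4 alone lay within the range of the controls, and the log2 fold change of Srxn1 was 0.86 (SE 0.23, limma adjusted p = 0.103); the intervals implied 1.65 to 199 fragments.

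Prdx4, the endoplasmic reticulum peroxiredoxin and the most abundant member in the controls after Gstp1, was at 14.3, 112, 38.9 and 207 rescaled FPKM in labelled libraries 1 to 4, against 263, 200.5, 204 and 167 in controls 1 to 4. Labelled libraries 1 to 3 lay below all controls and labelled library 4 within their range. The means were 92.9 ± 86.4 in labelled libraries and 209 ± 39.8 in controls (SD, n = 4 each), with a log2 fold change of -1.75 (SE 0.73, limma adjusted p = 0.156). Without labelled libraries 1 and 3 it was -0.44, and without labelled library 4 it was -2.34 (adjusted p = 0.0405). The order of the labelled libraries in Prdx4 was that of the acinar sum; the part of acinar RNA in it was not tested. The remaining members of the role differed less: thioredoxin Txn1 at -0.18, its reductase Txnrd1 at 0.25, Prdx2 at 0.21, mitochondrial Prdx3 at -0.38, Prdx5 at 0.05 and Prdx6 at -0.24, all with overlapping groups.

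The 3 superoxide dismutases each stood differently. Sod3, the extracellular form, which binds to matrix and vessel walls, was at 7.31, 4.97, 8.22 and 4.36 rescaled FPKM in labelled libraries 1 to 4, against 2.22, 1.96, 1.75 and 2.31 in controls 1 to 4. The lowest labelled value was above the highest control value, and the means, 6.21 ± 1.85 in labelled libraries and 2.06 ± 0.252 in controls (SD, n = 4 each), differed 3.01-fold. The log2 fold change of Sod3 was 1.20 (SE 0.19, adjusted p = 0.0443 by limma; exact two-sided permutation p = 0.0286, the smallest possible). Sod3 lies on mm9 chromosome 5 from 52755185 to 52762644, with no other annotated gene in its span, and the intervals implied 50 to 969 fragments per library.

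The Sod3 call held in 6 of 22 other settings and its direction in all 22, where the log2 fold change ran from 0.65 to 2.19. The call ended without labelled library 1 (adjusted p = 0.115) or labelled library 3 (0.0952), and without control 1, 2, 3 or 4 (0.101, 0.180, 0.161 and 0.0889). It was 1.21 among BKD titles, 3 labelled libraries and 1 control, and 0.99 among the ASK and BSH titles, 1 labelled library and 3 controls, with adjusted p = 0.637 and 0.264. Without labelled libraries 1 and 3 it was 0.89 (adjusted p = 0.104). Fibroblasts and vessel wall cells are known sources of Sod3, and no marker list was made for smooth muscle cells of that wall. The summed level of the 8 fibroblast markers was 333 to 1253 rescaled FPKM in the labelled libraries and 206 to 284 in the controls. None was at 0, and 6 of the 8 were higher without overlap, against 10.9% of all genes. The sum of the 4 endothelial markers was 23.8 to 33.8 in the labelled libraries and 27.8 to 32.9 in the controls. That of the 8 adipocyte markers was 380 to 498 in the labelled libraries and 75.0 to 223 in the controls. The part of these cells in the Sod3 values was not tested.

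Sod2, the mitochondrial manganese enzyme, went the other way, at 3.37, 3.77, 3.06 and 3.91 rescaled FPKM in labelled libraries 1 to 4, against 6.20, 7.84, 6.06 and 5.01 in controls 1 to 4. The groups did not overlap, the labelled libraries were close to each other, and the means were 3.53 ± 0.386 in labelled libraries and 6.28 ± 1.17 in controls (SD, n = 4 each). Its log2 fold change of -0.68 (SE 0.14, limma adjusted p = 0.0857) was not called; it was -0.58 without labelled libraries 1 and 3, -0.72 (adjusted p = 0.0344) without labelled library 4, and positive, 0.23 and 0.39, under the scalings to library totals. Relative to the median of all genes it was lower under those scalings too. Sod1, the abundant cytosolic form, was at 63.8, 67.2, 47.0 and 73.8 in the labelled libraries, against 82.9, 65.2, 86.0 and 68.9 in the controls. The Sod1 groups overlapped (-0.27, SE 0.22, limma adjusted p = 0.394), and its sign was positive under quantile, equal-sum and implied-total scaling.

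Summed over all 53 genes, the level was 825, 1035, 937 and 1308 rescaled FPKM in labelled libraries 1 to 4, against 1733, 1513, 1393 and 1308 in controls 1 to 4. Labelled library 4 and control 4 were level to the unit. The means were 1026 ± 206 in labelled libraries and 1487 ± 185 in controls (SD, n = 4 each). Soluble glutathione S-transferases gave 153, 377, 223 and 456 of this in the labelled libraries, against 746, 665, 549 and 525 in the controls, without overlap. The sum over the 8 glutathione peroxidases overlapped between the groups, at 249, 139.8, 235 and 169 in the labelled libraries, against 179, 156, 153 and 164 in the controls. The deposited values are not scaled to a fixed library size, so sums share that scale and the most abundant genes carry them.

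**Figure D4:**
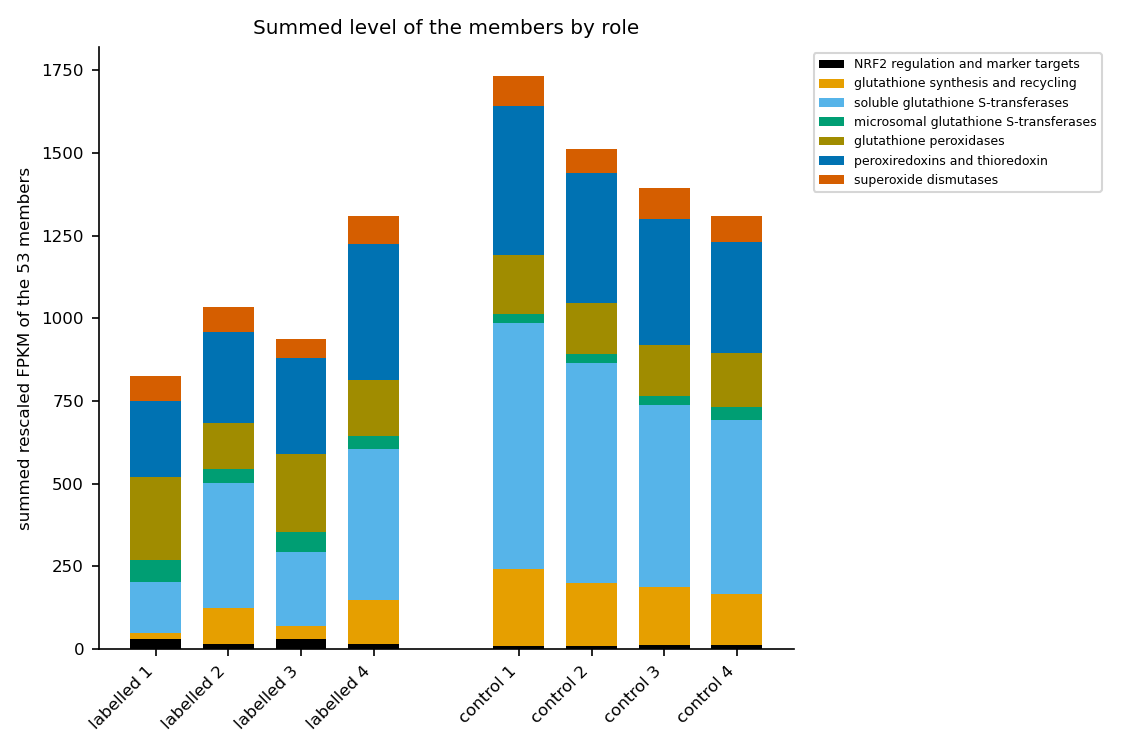
Summed rescaled FPKM of the 53 members in each library (labelled Gata6-deleted to the left, controls to the right), stacked by role from 0. The light blue soluble transferase part is 153 to 456 in the labelled libraries and 525 to 746 in the controls.

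The rest of the pathway was followed in 7 lists of 85 symbols, of which 83 were found and 75 had a tested gene; none was called in either direction, while 21 were higher and 16 lower at an unadjusted p under 0.05 in limma, against 17.9% and 12.2% of all genes. Their median log2 fold change was 0.05. The NADPH oxidase and xanthine oxidase list, which makes superoxide and peroxide, had the highest median, 1.30, with 7 of 7 tested positive. Cybb, the catalytic subunit of the phagocyte oxidase, was at 16.7, 4.60, 11.2 and 3.91 rescaled FPKM in labelled libraries 1 to 4, against 2.13, 2.11, 1.8 and 3.68 in controls 1 to 4 (log2 fold change 1.38, SE 0.41, limma adjusted p = 0.109). Its partner Cyba averaged 25.6 ± 12.9 in labelled libraries and 9.39 ± 2.49 in controls (SD, n = 4 each; 1.25, limma adjusted p = 0.105), and neither overlapped between the groups. The myeloid markers given above moved with these genes, and their part was not tested.

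The list of NRF2 target enzymes and transporters outside the 53 had a median of 0.52, 11 of 14 positive. Cbr1 and Osgin1, named after their values were seen, were negative at -0.76 and -0.42, as was Taldo1. Slc7a11, named likewise and untested, was at 0.280 to 0.694 rescaled FPKM in the labelled libraries and 0.911 to 1.83 in the controls. Pgd and Tkt, of the pentose phosphate pathway that yields NADPH, averaged 10.1 ± 3.01 and 25.9 ± 9.15 rescaled FPKM in the labelled libraries, against 4.87 ± 0.971 and 14.1 ± 1.08 in the controls (SD, n = 4 each). Neither overlapped, with log2 fold changes of 0.89 and 0.77 (limma adjusted p = 0.0959 and 0.114). Taldo1, of the same pathway, was lower without overlap, 27.3 ± 4.26 in the labelled libraries and 37.0 ± 2.62 in the controls (-0.43, limma adjusted p = 0.144). Among the NRF2 partners the median was 0.08, and 5 of 8 were positive. The most abundant, Sqstm1 and Cul3, had log2 fold changes of 0.12 and -0.07 with overlapping groups, and Nfe2l1, a relative of NRF2, had 0.57 (limma adjusted p = 0.124), also overlapping. Mafg, a small MAF partner of NRF2 with 2 gene IDs, had 0.62 (limma adjusted p = 0.172) for the tested one. Rbx1, the RING subunit of the ligase that KEAP1 uses, is named after its values were seen, as the gene of this list whose groups did not overlap; it was at 9.16, 8.06, 9.11 and 9.22 rescaled FPKM in labelled libraries 1 to 4, against 12.5, 13.3, 11.4 and 13.2 in controls 1 to 4 (-0.46, SE 0.12, limma adjusted p = 0.103).

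The list of cysteine supply and glutathione breakdown had the lowest median, -0.42, with 7 of 11 negative. Cth, which makes cysteine from cystathionine, was at 1.43, 6.80, 4.26 and 5.58 rescaled FPKM in labelled libraries 1 to 4, against 20.5, 15.4, 13.2 and 15.8 in controls 1 to 4. Every labelled value lay below every control value, and the log2 fold change was -1.75 (SE 0.35, limma adjusted p = 0.0808). Cbs, the step before it, was at 3.53, 53.7, 10.4 and 54.4 in the labelled libraries, against 59.9, 109, 96.2 and 84.9 in the controls (-2.12, SE 0.78, limma adjusted p = 0.131). Slc3a2, a subunit of the cystine transporter and of other amino acid transporters, averaged 26.3 ± 6.38 in labelled libraries and 51.3 ± 11.2 in controls (SD, n = 4 each; -0.94, limma adjusted p = 0.103), again without overlap.

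Catalase and the thioredoxin and glutaredoxin partners had a median of -0.19. Txnip, which binds and inhibits thioredoxin, was the exception in size, at 103, 139, 135 and 86.9 rescaled FPKM in labelled libraries 1 to 4, against 68.0, 52.8, 34.8 and 33.2 in controls 1 to 4 (log2 fold change 1.32, SE 0.30, limma adjusted p = 0.0885), with no overlap. The metal and haem list had a median of 0.23, in which the metallothioneins Mt1 and Mt2 averaged 416 and 176 in the labelled libraries, against 1043 and 467 in the controls, with overlapping groups. Selenoprotein genes had a median of -0.20 and 11 of 14 negative. Of these, Selm, of the endoplasmic reticulum, averaged 10.9 ± 1.88 in labelled libraries and 22.4 ± 4.99 in controls (SD, n = 4 each; -0.96, limma adjusted p = 0.0857), without overlap.

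Whether the difference itself differed between BKD and other titles was tested by an interaction term in limma: no member passed adjustment (smallest adjusted p = 0.962), and 3 of 44, Gpx7, Gstm1 and Gstm5, had an unadjusted p under 0.05. Of all genes tested, 39 passed. With 1 control or 1 labelled library on each side of this contrast, a miss does not show that the sides were alike: the log2 fold change of Ggt1 was -3.25 among BKD titles and -0.71 among the others, that of Prdx4 -2.40 and -0.76, that of Gstm1 -1.32 and -0.01, and that of Hmox1 1.82 and 0.64. The spread of each named member over the settings is shown in the plot of alternative settings.

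**Figure D5:**
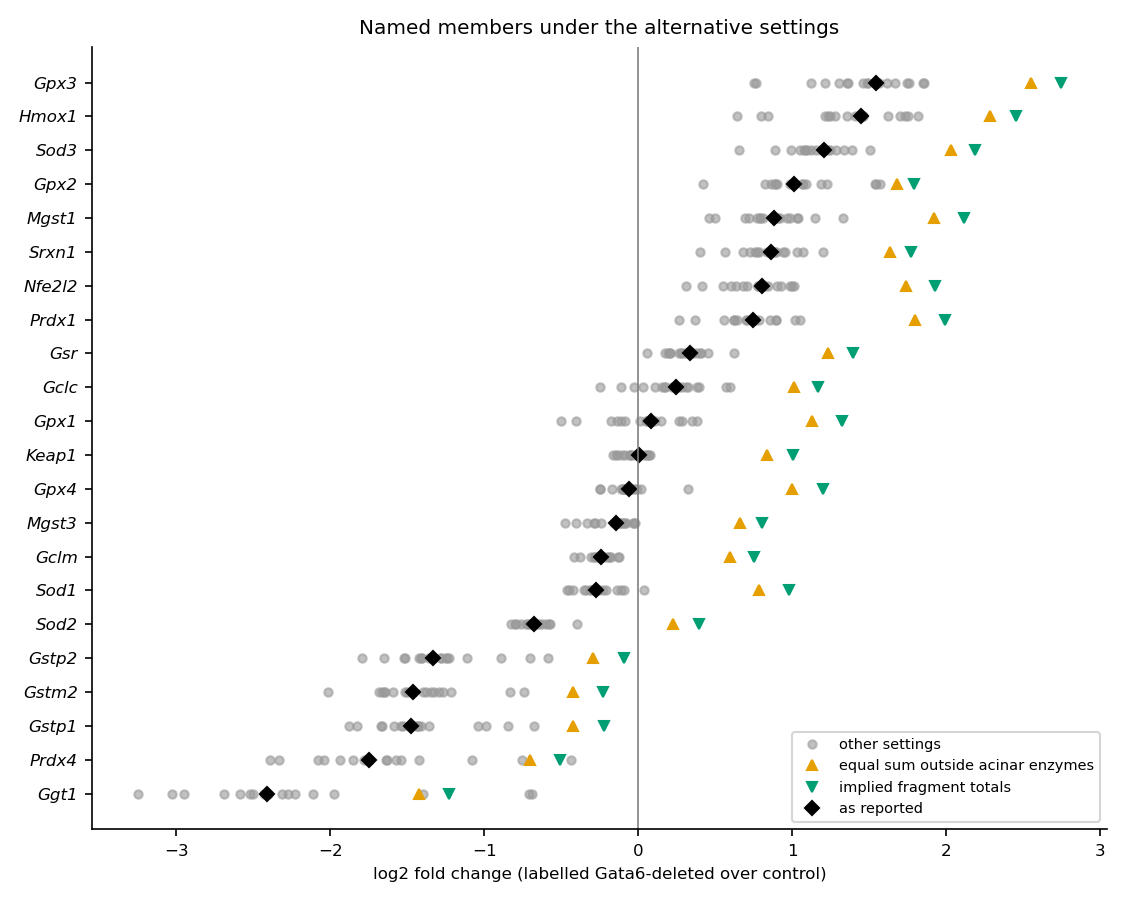
Log2 fold change (labelled Gata6-deleted over control) of the named members as reported (diamonds) and under each other setting (circles). Triangles mark the equal-sum and implied-total scalings, which moved the median of all genes to 0.90 and 1.05. Sod3 lies right of 0 in every setting, from 0.65 to 2.19, while Keap1, Gpx1, Gpx4, Gclc, Gclm, Mgst3, Sod1 and Sod2 lie on both sides.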

How the data were processed

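Poly(A) RNA libraries of 8 pancreases (4 per group) were made with 8 PCR cycles from RNA of integrity number 7.1 to 8.8, per the labels' protocols. The submitters' processing notes name the builds mm9 and NCBIM37, and as tools Cufflinks 2.0.1, TopHat2 2.0.4 with Bowtie, and CASAVA 1.8; for strand and annotation release nothing is stated. The authors deposited 1 table of gene FPKM per sample, with 36448 entries for 36432 gene IDs. The 14 IDs on more than 1 entry were summed, and 8 abundant acinar genes that the files list without an estimate were left out. Every member had a valid estimate. FPKM sums differed widely between samples, so the deposited FPKM are not scaled to a fixed total; they were divided by 100000 and are called rescaled FPKM. No counts are in the files, and depth was implied from the interval widths. Implied numbers treat an interval as set by fragment number alone, so an interval widened for another reason gives too low a number. Genes without an estimate add nothing to the implied totals or to the scaling by them.

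Genes with a mean of at least 1 were tested on log2(rescaled FPKM + 1), which understates changes of low genes, with limma 3.58.1 in R 4.3.3 (two-sided, with an intensity trend), adjusting over all 11860 by Benjamini-Hochberg. The fit was also run on simulated data with known changes, with the spread of the controls in both groups. The labelled libraries spread more in genes such as Nfe2l2, so that run does not show how the fit performs on these data. Fragments that match several genes are shared out by likelihood in Cufflinks. Paralogs, and the 16 members whose span overlaps another gene, therefore have uncertain values. Coordinates are mm9, counted from 1; promoters are from RefSeq on GRCm38.p6. The members, lists and tests were chosen with earlier results of these data known. Values in every library are given for members that passed, for the 2 most abundant and the 2 of largest log2 fold change in each role, and for Nfe2l2, Keap1, Nqo1, Hmox1, Gclc and Gclm; other members are given by range or count. In the pathway lists the 2 of largest difference and the 2 most abundant genes could be named. Rbx1, Cbr1, Osgin1 and Slc7a11 were named after their values were seen. The 23 alternatives were other pseudocounts, expression minimums, scalings and variance models, title prefixes, and leaving out libraries.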

Additional observations from a re-analysis of the deposited data

Results flagged for a closer look

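In 90 groups of 4 libraries (the 44 tested members and Gata6, 2 groups a gene), 5 had 1 library far from the other 3 by the gap to its nearest neighbour over the range. Chance gives about 1 in 20 groups. Labelled library 4 had 7.87 rescaled FPKM of Gclc, against 2.08 to 2.68 in the other labelled libraries. Control 1 had 8.30 of Gss, against 1.14 to 2.33 in the other controls. Control 1 was also listed at 0.0 for Gpx2, against 0.652 to 0.730 in the other controls, and had 1.89 of Hmox1, against 2.19 to 2.25. Control 2 had 2.57 of Gstm6, against 1.39 to 1.53 in the other controls, and how Gstm6 and Gstm3 share fragments is uncertain.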

How the results depend on the processing

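No paired analysis was possible because nothing in the labels links a labelled library to a control. Other settings gave the following. Members called higher, 1 as reported, were 0 with a pseudocount of 5, no minimum, or a minimum of 5 (Sod3 then untested). They were also 0 with quantile or equal-sum scaling, implied totals, no trend, the prefix as covariate, or without labelled libraries 1 and 3. Each prefix group alone has 1 library on a side, so its calls are not counted here. Sample weights gave 9 higher and 12 lower, where 19.5% and 12.5% of all genes were called. The settings with no member called higher, prefix groups aside, called 0.0337% to 0.421% of all genes higher. Leaving out 1 library gave 0 to 8 higher and 0 to 7 lower, where 0.0586% to 11.6% and 0.0168% to 10.2% of all genes were called. In the pathway lists, weights gave 24 higher and 13 lower, and leaving out 1 library 0 to 18 and 0 to 10. The member median, -0.16, was -0.042 with no minimum, -0.28 with a minimum of 5, -0.30 by median ratio, -0.054 by quantile, -0.058 with weights, -0.28 with the prefix covariate, -0.20 to -0.042 without 1 library, 0.83 by equal sum (all genes 0.90) and 0.99 by implied totals (all genes 1.05). Gata6 stayed positive but lost its call at 0.90 (pseudocount 0.1), 0.38 (5), 0.72 (no minimum, no trend, robust), 0.57 (median ratio, quantile, BKD), 1.55 (equal sum), 1.71 (implied totals), 0.71 (covariate), 0.85 (ASK and BSH) and 0.69 (without labelled libraries 1 and 3), and ran from 0.67 to 0.77 without 1 library. Sample weights and leaving out labelled library 4 each kept it.

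Named members turned sign as follows. Gclc was -0.031 with weights, -0.25 in ASK and BSH titles and -0.11 to 0.40 without 1 library. Gpx1 was -0.11 by median ratio, -0.17 with the covariate, -0.41 in ASK and BSH, -0.50 without labelled libraries 1 and 3 and -0.14 to 0.28 without 1 library. Keap1 was -0.14 by median ratio, -0.17 by quantile, -0.11 with the covariate, -0.085 in BKD, -0.13 in ASK and BSH, -0.0013 without labelled libraries 1 and 3 and -0.052 to 0.068 without 1 library. Gpx4 was 0.32 by quantile and -0.10 to 0.017 without 1 library, and Sod1 was 0.038 by quantile. By equal sum and by implied totals, Gclm was 0.60 and 0.75, Gpx4 1.00 and 1.20, Mgst3 0.66 and 0.81, Sod1 0.78 and 0.98, and Sod2 0.23 and 0.39. The cause was not tested. Where a prefix group has 1 library on a side, that library is assumed to vary like the others. Nqo1 and the other members below the minimum were not tested in the reported fit.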

Other observations

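Gss was at 4.40, 6.10 and 2.10 rescaled FPKM in BKD labelled libraries 1, 3 and 4 and at 8.30 in the BKD control, against 1.55 in BSH labelled library 2 and 2.33, 1.29 and 1.14 in ASK controls 2 to 4. Control 1 was the highest of the 8 libraries in 15 of the 44 tested members, 34.1%, beside 17.8% of all genes tested.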
